A study of Homo sapiens with 54 samples.

Results

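The regions described here are all those bound by Brf1 in 2 peak lists from T47D cells, 1 made from cells given ethanol vehicle and 1 from cells given the progestin R5020. Every row on chromosomes 1 to 22 and X was taken, which gave 370 vehicle regions and 1157 R5020 regions, or 1527 of the 520465 rows in the 16 lists of the series. A region was called shared when it had at least 1 bp in common with a region of the other list, and otherwise vehicle-only or R5020-only. T47D is an established human breast cancer line of luminal type that carries estrogen and progesterone receptors. The cells were grown with insulin and serum and exposed for 1 h to ethanol or to R5020, a synthetic agonist of the progesterone receptor (PR), before formaldehyde fixation and chromatin immunoprecipitation with sequencing (ChIP-seq). Each Brf1 group holds 3 libraries by its labels and 1 deposited list, with no statement that the libraries came from separate cultures. No spread between replicates can therefore be measured, no p-value is given, and each 95% interval reflects counting error alone. T47D is a single line, and each fold averages over the cells of a library, so more bound cells and more binding per cell cannot be told apart.

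Brf1 is a subunit of TFIIIB, the factor that brings RNA polymerase III to its start sites. At tRNA genes the A and B boxes inside the gene bind TFIIIC, which places the Brf1 form of TFIIIB just upstream of the start, and 5S rRNA genes reach the same complex through TFIIIA. These are the type 2 and type 1 promoters. Genes such as RN7SK and the U6 genes have type 3 promoters, which lie upstream of the gene and use the related subunit Brf2 instead. Maf1 represses RNA polymerase III and is known to bind Brf1 and the polymerase. POLR3A is the largest subunit of the polymerase, and acetylated lysine 27 of histone H3 (H3K27Ac) marks active promoters and enhancers.

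The sequences printed here are tRNA genes that fall inside RefSeq promoter windows of GRCh38.p14. Whether Brf1 distinguishes between them by sequence was not tested. They are given 5′ to 3′ on the strand that holds the B box, in lower case, with capitals marking the core letters of the B box, GTTCNANNC, in which N is any base. The first pair are asparagine tRNA genes with the anticodon GTT, of which TRN-GTT4-1 (chr1:16889677-16889750) had a Brf1 region with R5020 alone and TRN-GTT6-1 (chr1:143735920-143735993) had one in both treatments.
TRN-GTT4-1: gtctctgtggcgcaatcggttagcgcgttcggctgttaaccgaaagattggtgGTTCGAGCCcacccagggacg
TRN-GTT6-1: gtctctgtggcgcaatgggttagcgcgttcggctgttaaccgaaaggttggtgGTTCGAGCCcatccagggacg
The genes differ at 3 of 74 bases, C17G, A47G and C65T, counted from the gene's 5′ end, with the base of TRN-GTT4-1 first. TRN-GTT4-1 was in no vehicle Brf1 region and had a Brf1 fold enrichment of 6.70 in the R5020 list. TRN-GTT6-1 had a fold of 8.17 in the vehicle list and 22.3 in the R5020 list. Fold enrichment is the authors' ratio of a region's peak signal to local background, and folds of the vehicle and R5020 lists are not on a common scale.

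The other sequences are pairs of genes that are identical to each other, 1 inside a Brf1 region and 1 outside, for proline (anticodon TGG) and for histidine (anticodon GTG). They lie at chr14:20684016-20684087 (TRP-TGG3-2), chr16:3188094-3188165 (TRP-TGG3-5), chr15:45201151-45201222 (TRH-GTG1-9) and chr1:148281365-148281436 (TRH-GTG1-3).
TRP-TGG3-2: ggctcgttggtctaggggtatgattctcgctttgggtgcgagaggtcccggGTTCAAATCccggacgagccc
TRP-TGG3-5: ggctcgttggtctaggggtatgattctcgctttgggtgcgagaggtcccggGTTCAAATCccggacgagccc
TRH-GTG1-9: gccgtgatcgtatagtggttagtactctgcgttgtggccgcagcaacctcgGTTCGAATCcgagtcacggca
TRH-GTG1-3: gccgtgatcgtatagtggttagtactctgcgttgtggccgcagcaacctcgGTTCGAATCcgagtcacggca
TRP-TGG3-2 had Brf1 folds of 37.6 with vehicle and 81.0 with R5020, while TRP-TGG3-5 lay in no Brf1 region of either list. TRH-GTG1-9 had folds of 32.2 and 88.1, and TRH-GTG1-3 again lay in none. These folds are those of wide regions and not of 1 gene. The R5020 region at TRH-GTG1-9 also covers TRH-GTG1-8, and its summit, at chr15:45200497, is outside TRH-GTG1-9. TRP-TGG3-2 lies in the R5020 region chr14:20682798-20684508, which is far longer than the gene. The genes without Brf1 still had POLR3A regions of low fold in both treatments. These were 9.26 and 10.3 at TRP-TGG3-5, against 57.2 and 69.0 at TRP-TGG3-2. At TRH-GTG1-3 they were 4.15 and 5.64, against 36.6 and 69.6 at TRH-GTG1-9. Reads that lie wholly inside such identical genes cannot be told apart by sequence, and how the authors placed them is not given in the sources used here.

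The vehicle list was almost contained in the R5020 list. Only 14 of 370 vehicle regions (3.78%) had no R5020 region, whereas 804 of 1157 R5020 regions (69.5%) had no vehicle region. These are the background rates for every count of vehicle-only and R5020-only regions that follows. By number, the R5020 list was longer by 1.65 on the log2 scale (95% counting interval 1.48 to 1.81). Where a region was shared, it sat at the same place. The summits of the 357 overlapping pairs were a median of 8 bp apart, and 333 pairs (93.3%) were within 50 bp.

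Few of the added regions fell on the genes that Brf1 is known for. A region at a tRNA gene lay within 200 bp of it, and the vehicle list held 242 such regions and the R5020 list 251, a log2 ratio of 0.05 (-0.20 to 0.31). Other polymerase III genes had 41 and 42. At ends of protein-coding genes, within 1 kb of either end, there were 19 and 147, a log2 ratio of 2.95 (2.26 to 3.64). Inside protein-coding genes there were 10 and 114 regions, and between genes 31 and 459. Polymerase III genes thus held 283 of 370 vehicle regions (76.5%, 71.9 to 80.5) and 293 of 1157 R5020 regions (25.3%, 22.9 to 27.9). Among R5020-only regions they held 16 of 804 (1.99%, 1.23 to 3.21). The share within 1 kb of a protein-coding gene end, whatever else was there, was 16.2% of R5020-only regions and 18.1% of shared ones, a difference of -1.96 percentage points (-6.93 to 2.60). The difference was 5.71 points with a fold of at least 5 in both lists and 6.84 without 14 windows that hold 10 or more R5020-only regions per 1 Mb. It was -4.45 with a -log10 q of at least 5 in both lists and -14.8 with the 370 R5020 regions of highest -log10 q alone. Its direction thus rests on the selection. Of the 64 shared regions so counted, 17 were at no gene of the polymerase III, pseudogene or 45S classes, compared with all 130 of the R5020-only regions.

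**Figure D1:**
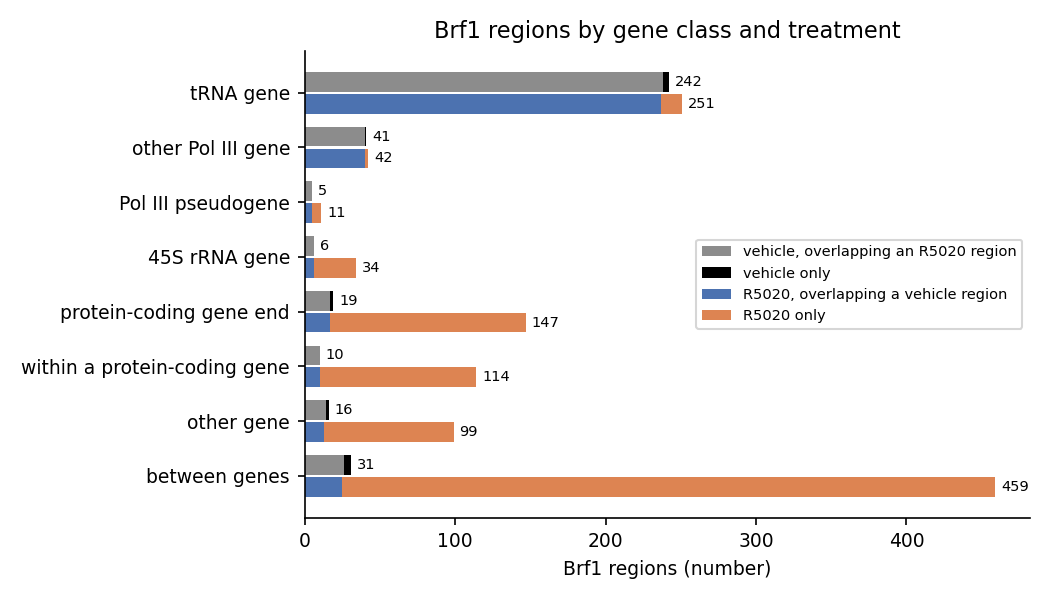
Number of Brf1 regions (x axis) in each gene class (y axis) for the vehicle list (upper bar) and the R5020 list (lower bar), split by overlap with the other list. The tRNA bars stand at 242 and 251, while the bar between genes goes from 31 to 459, of which 434 are R5020-only.

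Most added regions were weak. In the R5020 list the shared regions had a median fold of 36.6 (range 2.65 to 91.0) and the R5020-only regions 3.81 (1.51 to 16.4), with 568 of 804 (70.7%) under a fold of 5. With that list divided into 4 bins of about equal size by fold, 1 of 290 regions in the lowest bin, up to 2.90, (0.345%) overlapped a vehicle region. The share was 8 of 289 (2.77%) in the next bin, 61 of 289 (21.1%) in the bin from 5.05 to 10.8, and 283 of 289 (97.9%) in the highest. Inside both sets, folds at tRNA genes were higher than at gene ends. At shared regions the median fold was 56.9 at tRNA genes, 19.7 at other polymerase III genes and 8.17 at protein-coding gene ends. At R5020-only regions it was 7.20 at tRNA genes, 4.70 at gene ends and 2.46 between genes. The list lengths depend on depth, which the lists do not record. With a fold of at least 5 in both lists the log2 ratio of counts was 0.89, and with the 370 R5020 regions of highest -log10 q in place of all 1157, 18.9% had no vehicle region.

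**Figure D2:**
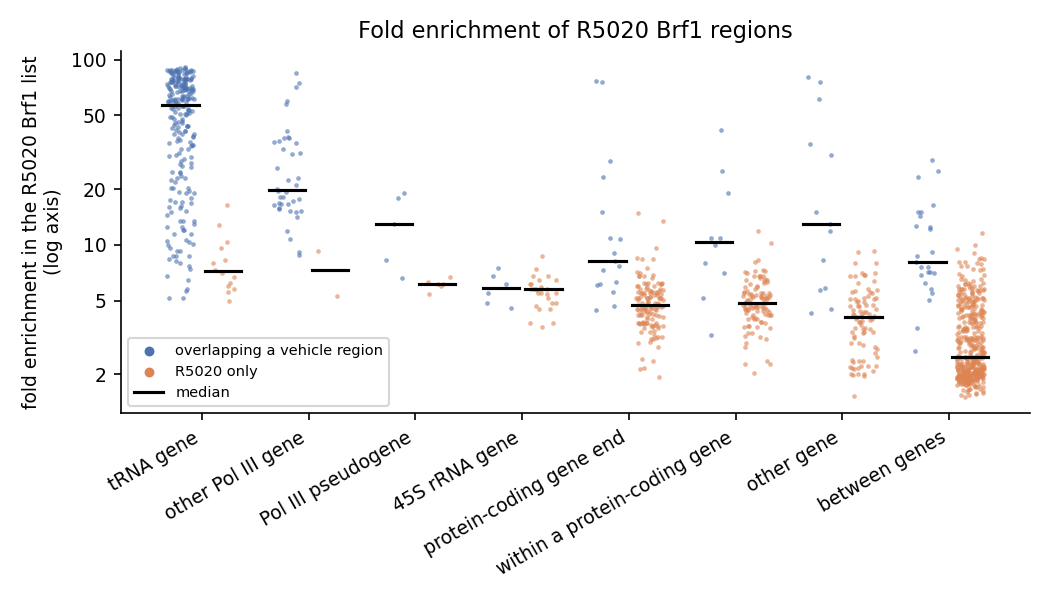
Fold enrichment in the R5020 Brf1 list (y axis, log scale) for each region, by gene class (x axis). Blue points overlap a vehicle region, orange points are R5020-only and black lines are medians. The R5020-only points lie at or under 16.4 in each class, while shared tRNA regions reach 91.0.

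Brf1 lay at nearly the same tRNA genes in both treatments. Of the 421 numbered tRNA genes of the RefSeq table, 300 (71.3%) had a vehicle region within 200 bp and 309 (73.4%) an R5020 region. Both treatments shared 295 of them, and 107 had Brf1 in neither. A single region could cover several genes: 45 of the 242 vehicle regions and 43 of the 251 R5020 regions reached more than 1 gene, with at most 4. Genes in such clusters share a value. The 10 tRNA regions of highest -log10 q in the R5020 list had folds from 86.7 to 91.0. They lay at TRR-CCG1-3, TRG-CCC2-1, TRA-TGC3-1 with TRK-CTT2-2, TRC-GCA2-3 with TRC-GCA2-4, TRH-GTG1-8 with TRH-GTG1-9, TRL-TAG3-1, TRL-CAG2-1 with TRL-CAG2-2, TRG-GCC2-3 with TRX-CAT1-7, TRR-CCG1-2 and TRX-CAT1-2. The 10 of the vehicle list had folds from 47.7 to 51.5. They lay at TRL-AAG2-4, TRR-TCT1-1, TRD-GTC2-9 with TRF-GAA1-4, TRS-GCT4-2, TRG-TCC1-1 with TRV-CAC3-1, TRC-GCA2-3 with TRC-GCA2-4, TRD-GTC2-8, TRG-CCC2-1, TRE-CTC2-1 with TRL-CAA4-1, and TRL-CAG1-7. The regions at TRG-CCC2-1 and at TRC-GCA2-3 are in both sets of 10.

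Occupancy differed between tRNA families. All 20 threonine genes and all 8 initiator methionine genes (symbols TRX-CAT) had Brf1 in both treatments. Cysteine genes had the lowest share, with 12 of 29 (41.4%, 25.5 to 59.3) in the vehicle list and 11 of 29 (37.9%, 22.7 to 56.0) in the R5020 list. Their intervals lie below those of the threonine genes (83.9 to 100). Both families were picked as extremes after the values were seen, and the intervals treat genes that share a region as independent. POLR3A was at 21 of the 29 cysteine genes with vehicle and 18 with R5020, and at all 20 threonine genes in both lists. Isoleucine genes had Brf1 at 12 and 13 of 22, and asparagine genes at 11 and 13 of 21. Elongator methionine genes had Brf1 at 7 of 11 with vehicle and 10 of 11 with R5020, the largest difference in count, and its intervals (35.4 to 84.8 and 62.3 to 98.4) overlap. In the remaining families the counts of both treatments differed by at most 2 genes.

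**Figure D3:**
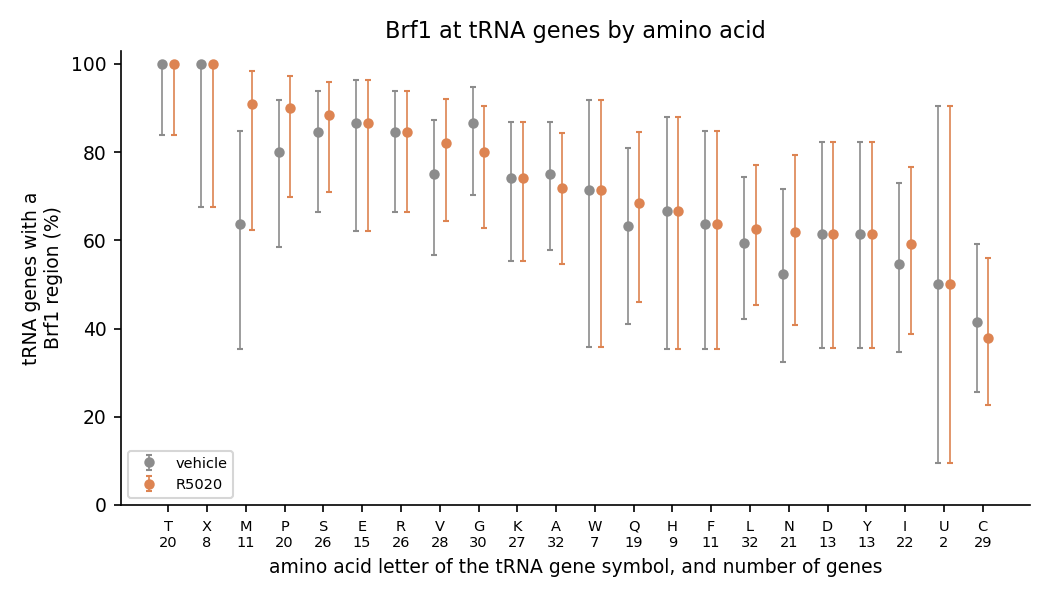
Share of tRNA genes with a Brf1 region within 200 bp (y axis, percent, with 95% Wilson intervals) for each amino acid letter of the gene symbol (x axis, with the number of genes), for vehicle (grey) and R5020 (orange). X stands for initiator methionine and U for selenocysteine. Threonine (T) and X are at 100% and cysteine (C) at 41.4% and 37.9%, and vehicle and R5020 intervals overlap in each family.

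The 19 tRNA genes with Brf1 in 1 treatment alone (4.51% of 421) were weakly bound. The 14 with R5020 alone were TRN-GTT4-1, TRN-GTT8-1, TRQ-CTG4-2, TRV-CAC1-2, TRV-CAC1-3, TRM-CAT5-1, TRM-CAT5-2, TRM-CAT2-1, TRS-GCT1-1, TRS-CGA2-1, TRI-TAT3-1, TRP-AGG2-3, TRP-TGG3-4 and TRL-TAG2-1. TRN-GTT8-1 (chr1:149740248-149740321) had the highest R5020 Brf1 fold of them, 16.4, then TRL-TAG2-1 with 12.9 and TRI-TAT3-1 with 10.3. TRM-CAT5-2 had the lowest, 4.99. The vehicle-alone genes were TRC-GCA7-1 with a vehicle fold of 6.80, TRS-AGA3-1 with 6.64, TRG-GCC3-1 with 5.87, TRA-AGC7-1 with 5.48 and TRG-TCC2-4 with 5.03. Across all tRNA genes in both lists the regions reached 51.5 with vehicle and 91.0 with R5020. The folds of the genes of 1 treatment alone were low among tRNA regions. Within the whole R5020 list, the R5020-only regions at tRNA genes had a median fold percentile of 68.7.

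The polymerase was listed at these genes whether or not Brf1 was. All 14 R5020-alone genes had a POLR3A region with R5020, and 13 had one with vehicle too, where Brf1 was not listed. At TRN-GTT8-1 the POLR3A fold was 28.4 in the vehicle list and 32.1 in the R5020 list. TRQ-CTG4-2 had no vehicle POLR3A region and an R5020 fold of 4.90. All 5 vehicle-alone genes had POLR3A in both lists, for example 14.2 and 6.28 at TRC-GCA7-1. The median vehicle POLR3A fold was 42.7 at the 295 genes with Brf1 in both treatments, 16.1 at the vehicle-alone genes, 11.8 at the R5020-alone genes and 6.96 at the 47 genes with vehicle POLR3A and Brf1 in neither. The R5020 POLR3A list gave medians of 52.0, 9.19, 12.1 and 7.13 in the same order.

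**Figure D4:**
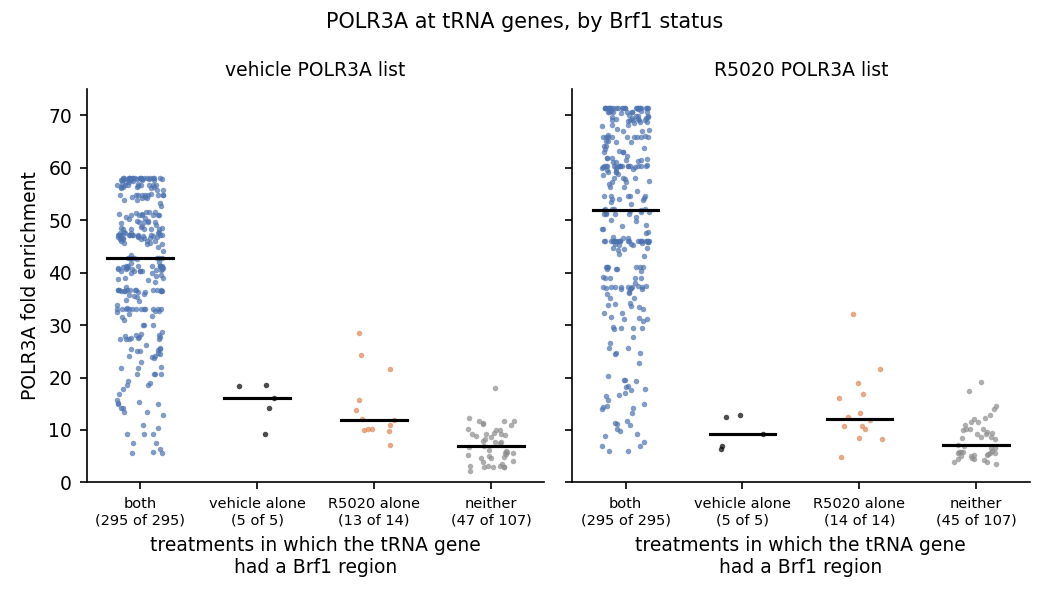
POLR3A fold enrichment at tRNA genes (y axis) in the vehicle list (left) and the R5020 list (right), by the treatments in which the gene had a Brf1 region (x axis, with the number of genes that had a POLR3A region). Black lines are medians. Genes with Brf1 in both treatments have medians of 42.7 and 52.0 and the other 3 sets lie at or under 16.1.

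PR, Maf1 and H3K27Ac were found at tRNA genes with strong Brf1. Of 314 tRNA genes with POLR3A and Brf1, 107 had PR with R5020 (34.1%, 29.0 to 39.5), 94 had Maf1 (29.9%, 25.1 to 35.2) and 157 had H3K27Ac (50%, 44.5 to 55.5). Of the 53 with POLR3A and no Brf1, 0 had PR, 0 had Maf1 (each up to 6.76%) and 1 had H3K27Ac (1.89%). With vehicle, PR was at 9 and Maf1 at 14 of the 314 genes, and at 0 of the 53. The 107 tRNA genes with R5020 PR all had Brf1 in the vehicle list, with a median vehicle fold of 35.3, against 25.5 at the 193 Brf1 genes of that list without R5020 PR. None of the 14 R5020-alone genes had PR, Maf1 or H3K27Ac with R5020 (0%, up to 21.5%). Of the 5 vehicle-alone genes, 2 had PR with R5020 and 0 had Maf1. The strength of Brf1 and POLR3A moves with these shares, and its part in them was not tested.

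Brf1 summits stood beside the tRNA gene more often than in it. Over the regions with a single tRNA gene, the summit was a median of 46.5 bp from the gene's centre in the 197 vehicle regions and 44.8 bp in the 208 R5020 regions. It lay inside the gene in 27 (13.7%) and 52 (25%) of them, and within 100 bp of the centre in all but 1 region of each list. The side could not be read, since the gene table gives no strand.

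The polymerase III genes outside the tRNA set separated by promoter type. All 17 numbered 5S rRNA genes (RNA5S1 to RNA5S17, type 1) had Brf1 in both lists, with folds of 5.50 to 8.60 with vehicle and 11.9 to 19.4 with R5020. They are tandem copies on chromosome 1, so reads cannot be assigned to 1 copy and their values are not independent. At 13 of the 17 an R5020 Maf1 region was listed and at 0 an R5020 PR region. The vehicle lists held weak PR regions at RNA5S5, RNA5S8, RNA5S13 and RNA5S16, with folds of 1.785 to 2.535. They held weak Maf1 regions at RNA5S1, RNA5S11, RNA5S13 and RNA5S16, with folds of 1.807 to 2.190. Of the 35 type 2 genes, 24 had Brf1 with vehicle and 23 with R5020.

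Among the type 2 genes, the vault RNA genes VTRNA1-1, VTRNA1-2 and VTRNA1-3 had vehicle folds of 20.5, 32.4 and 36.3. Their R5020 folds were 57.3, 85.1 and 71.1. VTRNA2-1 had neither Brf1 nor POLR3A. RN7SL1 and RN7SL2, which encode the RNA of the signal recognition particle, had vehicle folds of 23.8 and 33.0 and R5020 folds of 74.4 and 59.7. BCYRN1 had 9.62 and 22.8. Of the 28 SNAR genes, small noncoding RNA genes in near-identical copies mostly on chromosome 19, 17 had Brf1 in both lists. SNAR-C3 had a weak vehicle region alone, with a fold of 2.16. The SNAR-A genes and SNAR-B1, SNAR-B2 and SNAR-G2 were bound, and SNAR-C1, SNAR-C2, SNAR-C4, SNAR-C5, SNAR-D, SNAR-E, SNAR-F, SNAR-G1, SNAR-H and SNAR-I were not.

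Type 3 genes carried polymerase without Brf1. All 13 (RN7SK, RMRP, RPPH1, RNU6-1, RNU6-2, RNU6-7, RNU6-8, RNU6-9, RNU6ATAC, RNY1, RNY3, RNY4 and RNY5) had POLR3A in both lists, with vehicle folds from 24.5 at RPPH1 to 57.6 at RNY1. None had a vehicle Brf1 region, and 1 had an R5020 region. That gene was RNU6-1 on chromosome 15, with a Brf1 fold of 9.23 beside POLR3A folds of 39.7 and 40.2. The selenocysteine tRNA gene TRU-TCA1-1, whose promoter is also of type 3, differed from them. It had Brf1 in both lists, with folds of 6.15 and 15.1, and POLR3A folds of 45 and 66.1. TRU-TCA1-1 counts among the 421 tRNA genes above. Among pseudogenes of polymerase III genes, 5 of 2862 had vehicle Brf1 and 11 had R5020 Brf1. Of these 11, 10 derive from 5S rRNA, of which RNA5SP19 had the highest folds, 8.29 and 19.0. The other was RN7SL5P, with an R5020 fold of 6.11. None of the 1269 U6 pseudogenes, 292 RN7SK pseudogenes or 75 RNY pseudogenes had a region in either list.

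Several strong shared regions were at no numbered polymerase III gene. The 10 of highest R5020 -log10 q included a region 168 bp from an end of PPP6R3, a protein phosphatase regulatory subunit, with folds of 26.1 with vehicle and 75.6 with R5020. A further one lay in POLR3E, which encodes a polymerase III subunit, at chr16:22298330-22298897 with folds of 37.8 and 76.8. It is 1109 bp from TRL-AAG2-4, which has a Brf1 region of its own that overlaps POLR3E. The pseudogene WASF4P had folds of 42.8 and 81.0, and the gene HSD17B11, a steroid dehydrogenase, had an internal region with 20.7 and 41.8. Of the 10, 4 lay at genes or pseudogenes of tRNA type outside the numbered set or next to it. These were a pair of genes named TRNAV-CAC with R5020 folds of 61.5 and 34.8, the pseudogene TRS-ACT1-1 with 30.4, and LOC100189498, 3500 bp from TRV-CAC1-7, with 75.5. The remaining regions were between genes, 3731 bp from TMEM207 (25.0) and 5437 bp from LOC124904441 (23.2). All 10 had POLR3A in both lists.

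At protein-coding genes the R5020-only regions formed a set unlike the tRNA regions. They lay at 130 gene ends and in 104 gene bodies. Of these 234 regions, 205 had R5020 PR (87.6%, 82.8 to 91.2), 200 had R5020 Maf1 (85.5%, 80.4 to 89.4) and 212 had R5020 H3K27Ac (90.6%, 86.2 to 93.7). R5020 POLR3A was at 19 (8.12%, 5.26 to 12.3). H3K27Ac was also there in the vehicle list at 208 of the 234 (88.9%). With vehicle, PR was at 111 (47.4%) and Maf1 at 75 (32.1%). High shares with R5020 were not particular to the R5020-only regions. The 17 shared regions at gene ends had R5020 PR at 17, H3K27Ac at 15, Maf1 at 13 and POLR3A at 7. In the 10 shared regions inside genes, PR, Maf1 and H3K27Ac were each at 2 and POLR3A at 8. The 14 R5020-only regions at tRNA genes were the opposite of the 234, with POLR3A at 14 and PR, Maf1 and H3K27Ac at 0. Over all 804 R5020-only regions PR stood at 41.2% and over the 353 shared at 40.5%, a difference of 0.66 points (-5.53 to 6.72) that pools these unlike classes. It was 18.5 points with a fold of at least 5 in both lists and -27.8 with equal numbers of regions, so its direction rests on the selection. For Maf1 the pooled difference was 10.9 points (4.71 to 16.9). It was -10.1 (-20.9 to 2.56) when the R5020 list was cut to the length of the vehicle list, which left 70 R5020-only regions. That interval includes 0.

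**Figure D5:**
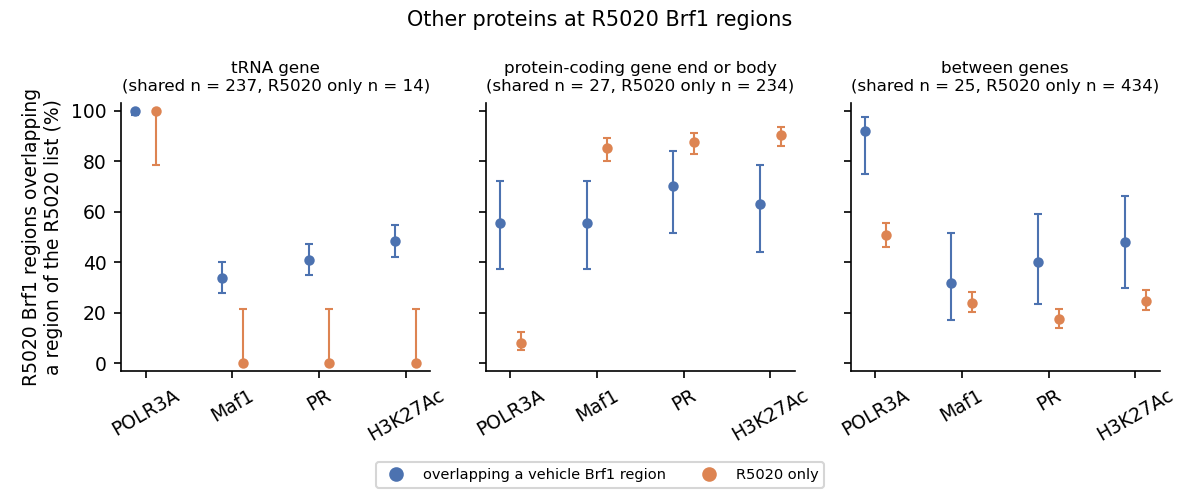
Share of R5020 Brf1 regions that overlap a region of the R5020 list of POLR3A, Maf1, PR or H3K27Ac (y axis, percent, with 95% Wilson intervals), for regions at tRNA genes (left), at ends or inside protein-coding genes (middle) and between genes (right). Blue points are regions that overlap a vehicle Brf1 region and orange points are R5020-only. At protein-coding genes the R5020-only points are at 85.5% to 90.6% for Maf1, PR and H3K27Ac and at 8.12% for POLR3A.

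Because the R5020 lists of PR (173115 regions) and H3K27Ac (112542) are long, overlap with them is common at any gene. All protein-coding genes without R5020 Brf1 at an end were therefore measured the same way. Of 138 genes with only R5020-only Brf1 regions within 1 kb of an end, 129 (93.5%) had R5020 PR at an end, against 11974 of 19614 without Brf1 (61.0%), a difference of 32.4 points (27.0 to 35.6). For R5020 Maf1 the shares were 91.3% and 35.6%, and for H3K27Ac 97.1% and 69.5%. The sets were not matched for H3K27Ac. The PR, Maf1 and POLR3A differences in this paragraph therefore do not compare acetylated genes with each other, and the part of H3K27Ac in them was not tested. R5020 POLR3A was rare in both sets, at 12 of the 138 genes (8.70%) and 40 of the 19614 (0.204%), a difference of 8.49 points (4.84 to 14.4). A contrast was also present in the vehicle lists, made without R5020. PR with vehicle was at 89 of the 138 genes (64.5%) and 2541 of the 19614 (13.0%), and Maf1 with vehicle at 52.2% and 9.07%. POLR3A with vehicle was at 9.42% and 0.153%. The genes that carry Brf1 only in the R5020 list were more often occupied by PR, Maf1 and POLR3A in vehicle cells.

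The strongest of these regions were at ends of genes of varied function. RNF24, a RING finger protein gene, had an R5020 Brf1 fold of 14.9 at chr20:4015687-4015949, with POLR3A, PR, Maf1 and H3K27Ac also listed with R5020. COPS4, a signalosome subunit gene, had 13.5 at chr4:83034507-83035102, with the last 3 and no R5020 POLR3A. Others were at DYM (9.57), NUP85 of the nuclear pore (8.47), the splicing gene SMU1 (8.36), the proteasome ATPase gene PSMC3 (7.52), HEATR4 (7.16), TOR1A (6.83) and SEPTIN9 beside its divergent transcript SEPTIN9-DT (6.21). Over the 10 R5020-only regions of highest -log10 q at gene ends, H3K27Ac with R5020 was at all 10, PR at 7, Maf1 at 7 and POLR3A at 3. GRID2IP had the strongest region inside a gene body, with a fold of 11.8. Vehicle POLR3A regions were listed at 5 of the 10 (RNF24, COPS4, DYM, NUP85 and PSMC3), where the vehicle list had no Brf1.

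Genes of the fixed lists were rarely bound. Over all 19821 protein-coding genes, 72 (0.363%) had vehicle Brf1 within 1 kb of an end and 207 (1.04%) had R5020 Brf1. Of 33 genes for the polymerase III machinery, 1 had it in each list, POLR3E, and the genes for Brf1, Maf1, POLR3A and TFIIIC subunits did not. Of 25 progestin-responsive genes, 1 had vehicle Brf1 and 3 had R5020 Brf1. PER1, a clock gene, had folds of 28.7 and 63.1 from a region that covers tRNA genes beside it. FKBP5, an immunophilin gene induced by steroid receptors, had an R5020-only region with a fold of 4.82, and MYC one with 3.66. The shares of the progestin-responsive list were 4% with vehicle and 12% with R5020, from 1 and 3 genes. Of 16 immediate early genes, 0 had Brf1 in either list. H3K27Ac was at an end of 10 of 10 luminal marker genes, PGR, ESR1, GATA3 and FOXA1 among them, in both treatments. It was at 3 (vehicle) and 4 (R5020) of 8 markers of other cell types, against 68.6% and 69.8% of all protein-coding genes.

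The core B box letters were then sought in promoters of all genes. GTTCNANNC on either strand was in 2607 of 34961 RefSeq promoter windows of 300 bp (7.46%), in 16 of 68 windows that overlap a shared Brf1 region (23.5%, 15.0 to 34.9) and in 14 of 97 with an R5020-only region (14.4%, 8.80 to 22.8). For windows that overlap no polymerase III gene the counts were 1 of 46 with a shared region (2.17%, 0.385 to 11.3) and 13 of 95 with an R5020-only region (13.7%, 8.18 to 22.0). A match is a string of letters and not a known binding site. Of these 13, 1 was at TAF1C, a subunit gene of the polymerase I selectivity factor, where the R5020-only region chr16:84187096-84187252 had a fold of 5.59 and spans the letters, 164 bp before the start. The stretch is chr16:84187182-84187250, shown because its letters are those of the histidine genes above and it lies next to no tRNA gene.
TAF1C upstream: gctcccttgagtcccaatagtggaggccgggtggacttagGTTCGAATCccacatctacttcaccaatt
No POLR3A region was listed at this place in either treatment, while PR, Maf1 and H3K27Ac were listed with R5020.

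Repeated genes of other polymerases also gained regions. The 3 genes for the 45S rRNA precursor on chromosome 21 (RNA45SN1, RNA45SN2 and RNA45SN3), which polymerase I transcribes, held 6 vehicle regions and 34 R5020 regions. Of these, 28 were R5020-only, with folds of 3.59 to 8.68. All 28 had R5020 Maf1, 9 had POLR3A and 8 had PR. The array of U2 spliceosomal RNA genes on chromosome 17, transcribed by polymerase II, differed. RNU2-1 and 12 further snRNA genes lie within 100 kb there, and 12 of the 13 had R5020 Brf1 with folds of 3.36 to 5.69. Vehicle Brf1 was at 2 of the 13, with folds of 1.77 and 2.75. PR and Maf1 were at all 13 in both treatments, the gene without Brf1 included, and POLR3A was at 0 of the 13 in either list. Of the other 101 snRNA genes outside the polymerase III sets, 2 had Brf1 in each list. A further array, of DUX4-like pseudogenes near the end of chromosome 10, held 15 R5020-only regions and 0 vehicle regions, with folds of 2.15 to 4.20. All 15 had R5020 POLR3A and 14 had Maf1. The copies of each array are near-identical, and the placement of their reads is uncertain.

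Many R5020-only regions were clustered and weak. Of all 804, 323 (40.2%) fell in 14 windows of 1 Mb that each held 10 or more. By class, 264 of these 323 were between genes, and 170 of the 434 regions between genes lay outside the windows. The fullest were on chromosome 21 from 8 to 9 Mb, with 86 regions that include the 45S genes, on chromosome 1 from 143 to 144 Mb with 47, and on chromosome 4 from 49 to 50 Mb with 47. Within the 14 windows the median fold was 2.30, 173 regions had R5020 POLR3A (53.6%) and 36 had PR (11.1%). Outside them the other 481 regions had a median fold of 4.54, POLR3A at 27.4% and PR at 61.3%. In the 3 fullest windows, in the order above, R5020 POLR3A was at 21, 28 and 33 regions and vehicle POLR3A at 19, 0 and 0. Over the 434 R5020-only regions between genes, POLR3A was at 50.9% with R5020 and 10.1% with vehicle. Repeats under these regions were not annotated, so the placement of reads there is uncertain. Without the windows the lists held 334 and 803 regions, a log2 ratio of 1.27 (1.08 to 1.45). Further, 145 R5020-only regions (18.0%) were over 100 kb from every annotated gene, compared with 0 of 353 shared regions. These had a median fold of 2.22, POLR3A at 90 (62.1%) and PR at 0 (up to 2.58%). Among the 10 R5020-only regions of highest -log10 q, 7 were between genes too, on chromosomes 10, 16 and 17, with folds of 2.63 to 3.78. These 7 lay 153371 to 1597820 bp from the nearest annotated gene, and the placement of their reads is uncertain as well. The remaining 3 were those at TRN-GTT8-1, RNF24 and GRID2IP.

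The vehicle-only regions were few and weak as well. Their folds ran from 2.16 to 6.80 with a median of 3.72, against 19.6 for vehicle regions that were shared. At tRNA genes there were 4 (TRC-GCA7-1, TRS-AGA3-1, TRA-AGC7-1 and TRG-GCC3-1), 1 was at SNAR-C3 and 2 were at ends of POLR2A (3.82), the largest polymerase II subunit gene, and MLLT1 (4.84). RNU1-28P with LOC105370449 and MIR6724-2 held 1 each, and 5 were between genes. Of these, the nearest to a gene was 324 bp from MIR10396A and the next 14319 bp from CDC42P2, and the others were over 100 kb from every annotated gene. POLR3A was at 9 of the 14 with vehicle and at 6 with R5020. TRG-TCC2-4, the other vehicle-alone tRNA gene, owes its place to the 200 bp limit. It lies within that distance of a shared region at TRE-CTC1-4, and the R5020 region there ends just beyond it.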

How the data were processed

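Libraries from 54 samples in groups of 3 were placed in groups by their titles, and the 6 Brf1 libraries (3 vehicle, 3 R5020) are represented by 1 deposited peak list each treatment. Per the submitters' processing notes, cutadapt, Bowtie2 and MACS2 were used with the hg38 build. Their versions and settings, the control libraries and the way replicates were combined are not given in the sources used here. The values are the authors': the deposited fold enrichment of each peak is a ratio over local background, and the deposited -log10 of the q-value has a lowest value of 1.53 in the vehicle list and 1.55 in the R5020 list. Depth is unknown, since the lists hold no reads. The columns of per-sample values outside the mapped samples numbered 0.

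Rows on chromosomes 1 to 22 and X were kept (370 of 383 and 1157 of 1354). Overlap meant at least 1 bp. Classes were assigned in the order tRNA gene, other polymerase III gene or pseudogene (within 200 bp), 45S rRNA gene, protein-coding gene end (within 1 kb), protein-coding gene, other gene, between genes, from the RefSeq gene table of GRCh38.p14 limited to genes placed on the chromosomes (58419 genes, 421 numbered tRNA genes). That table has spans and no strand. Promoter sequences are RefSeq's. Intervals are Wilson (shares), Newcombe (differences) and counting intervals (log2 ratios) at 95%. Overlap, class and interval functions were tested on simulated data. Python 3.11.15, numpy 2.4.6, pandas 2.3.3 and matplotlib 3.10.9 were used.

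The regions, gene lists and rules were chosen with earlier results of these data known. Named are all tRNA genes with Brf1 in 1 treatment alone, the 10 tRNA regions of highest -log10 q per list, all of a fixed list of other polymerase III genes, all vehicle-only regions, the 10 R5020-only regions of highest -log10 q overall and at gene ends, the 10 shared regions of highest -log10 q at no polymerase III gene, and bound members of 3 fixed gene lists. Of the 10 at gene ends, 1 is not reported here by name. The motif letters, the printed sequences, TAF1C, the pseudogenes, the snRNA, 45S and DUX4-like arrays and the tRNA genes with the printed sequences were chosen after their values were seen, the motif in place of a longer form of the B box. Alternatives were a -log10 q or fold of at least 5, equal numbers of regions, chromosome Y, distance to genes, 50% overlap, a 1 kb gap and other gene windows.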

Additional observations from a re-analysis of the deposited data

Results flagged for a closer look

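Rows outside chromosomes 1 to 22 and X, which no comparison above uses, made up a larger part of the R5020 Brf1 list than of the vehicle list. In the R5020 list they were 197 of 1354 rows (14.6%, 95% Wilson interval 12.8 to 16.5), of which 16 were on chromosome Y and 181 on unplaced or unlocalised scaffolds. In the vehicle list they were 13 of 383 rows (3.39%, 1.99 to 5.72), all on scaffolds. Their median folds were 2.51 with R5020 and 3.54 with vehicle. A pair of scaffolds, KI270733v1 and GL000220v1, held 75 of the R5020 rows and 11 of the vehicle rows.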

How the results depend on the processing

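No paired analysis was possible because the 2 lists have no replicate numbers, and no replicate could be left out. Depth is not recorded, so no region's absence can be set against it. Over 98 values under other settings, 55 moved by less than the interval (for tRNA gene counts, under 1.5 times), 42 moved further and 1, whose reported interval excluded 0, changed sign. The PR, H3K27Ac and gene end differences, whose reported intervals include 0, also changed sign under some settings and are not counted as that 1. The tRNA gene counts stayed within 1.5 times under each setting run. With 421 genes in all they could not have risen past that limit, so only a large fall could have been seen. Some settings, such as chromosome Y and distance to genes, could not change them, so their stability there is no finding. The settings changed the set of regions or the overlap rule, and why a value moved was not tested. Differences below are R5020-only minus shared R5020 Brf1 regions, in percentage points, and pol III shares are those of regions at polymerase III genes.

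With -log10 q of at least 5, the log2 ratio of counts was 1.46, the R5020-only share 64.8%, the pol III shares 81.0% (vehicle) and 30.6% (R5020), and the POLR3A difference -51.3. With a fold of at least 5, the log2 ratio was 0.89, the retained share of vehicle regions 98.4%, the R5020-only share 47.2% and the pol III shares 87.2% and 50.3%. The differences were then 5.71 for gene ends, -65.1 for POLR3A, 23.9 for Maf1, 18.5 for PR and 13.5 for H3K27Ac. With equal numbers of regions, the retained share was 81.6%, the R5020-only share 18.9% and the R5020 pol III share 71.6%. The differences were -14.8 for gene ends, -24.4 for POLR3A, -10.1 for Maf1, which changed sign, -27.8 for PR and -18.1 for H3K27Ac. Without regions over 100 kb from every gene, the log2 ratio was 1.46, the R5020-only share 65.1%, the R5020 pol III share 28.9%, and the differences -62.0 for POLR3A, 20.3 for Maf1, 9.72 for PR and 6.89 for H3K27Ac. With 50% of both Brf1 regions in common, the retained share was 91.6%. With gaps of up to 1 kb counted as shared, the R5020-only share was 66.3% and the POLR3A difference -50.9. With 50% in common with the partner region, the differences were 3.40 for Maf1 and -9.21 for PR. Without the 14 windows, a setting chosen after seeing the data, the log2 ratio was 1.27, the R5020-only share 59.9%, the R5020 pol III share 33.9%, and the differences 6.84 for gene ends, -67.3 for POLR3A, 29.8 for Maf1, 19.4 for PR and 21.7 for H3K27Ac.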
